A study of Rattus norvegicus with 12 samples.

Results

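Voltage-gated sodium channels, voltage-gated calcium channels and the pacemaker channels set the electrical behaviour of the heart, and 44 of the 21239 rat genes with counts in the deposited table encode a subunit of one of them. They were taken by name: the sodium channel alpha and beta subunits (Scn genes), the calcium channel alpha1, beta, alpha2delta and gamma subunits (Cacna1, Cacnb, Cacna2d and Cacng genes) and the pacemaker channels (Hcn genes). The rule uses names and no measured value.

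RNA of tissue labelled left atrium was sequenced in 12 libraries, 3 in each of 4 groups of rats. Wistar-Kyoto (WKY) rats, a normotensive strain, received saline at 7.5 ml/kg per day for 4 weeks, and so did the untreated spontaneously hypertensive rats (SHRs), an inbred strain that develops high blood pressure with age. In the ARB group, SHRs received the angiotensin receptor blocker valsartan at 30 mg/kg per day for 4 weeks. In the ARNI group, SHRs received sacubitril/valsartan, which joins that blocker to a neprilysin inhibitor, at 60 mg/kg per day for 4 weeks. The rats were 14 weeks old when purchased. For the 6 saline libraries the labels contradict each other: the words of the title name the opposite strain to the library name. These libraries were grouped by library name, which is also the column name in the deposited table. Under the words of the titles, every direction given for SHR against WKY would be turned. For the ARB and ARNI libraries the strain field gives Wistar-Kyoto and the phenotype field SHR, and both were treated here as groups of SHRs.

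As background, the sodium current carries the upstroke of the atrial and ventricular action potential, the L-type calcium current its plateau and the trigger for contraction. T-type calcium channels and the hyperpolarization-activated HCN channels are best known from the sinus node, where both help to drive spontaneous depolarization. A pore-forming alpha subunit works with accessory subunits: beta subunits modulate gating of sodium channels, and the calcium channel beta and alpha2delta subunits bring the pore to the membrane.

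Library totals were 11252361 to 11730665 expected counts in the WKY group, 12683159 to 14953507 in SHR, 12614041 to 15122151 in ARB and 12721085 to 15823525 in ARNI. Levels below are counts per 1000000 counts of the library (CPM), so that 3 reads correspond to 0.190 to 0.267 CPM. CPM is not divided by transcript length, so that levels were compared between libraries within a gene and not between genes.

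The label of left atrium was checked against chamber markers, and 4 libraries did not carry the atrial pattern. Myl7, the atrial regulatory light chain of myosin, was at 15.9, 3.304 and 0.889 CPM in WKY rats against 10641, 4478 and 9152 CPM in SHRs. It was at 11547, 8921 and 5144 CPM under ARB and 8638, 9.67 and 7568 CPM under ARNI. All 3 WKY libraries and ARNI replicate 2 were therefore near zero for a gene that reached 4478 to 11547 CPM in the other 8. Sln, the atrial calcium pump regulator sarcolipin, separated the same 4 libraries from the other 8, at 0.26 to 1.57 CPM against 668 to 1736 CPM.

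The ventricular genes ran the other way. For Myl2, the regulatory light chain of ventricular myosin, levels were 3737, 3776 and 3489 CPM in WKY rats against 0.736, 2298 and 0.135 CPM in SHRs. It was at 2.84, 3.71 and 2573 CPM under ARB and 3.98, 4161 and 24.2 CPM under ARNI. Myl2 was thus high in all WKY libraries and in SHR replicate 2, ARB replicate 3 and ARNI replicate 2, and of those the SHR and ARB libraries also carried the atrial genes. Irx4, a ventricular transcription factor, was at 26.2 to 49.7 CPM in these same 6 libraries and at 0 to 0.0669 CPM in the other 6. Over the whole lists, the 12 atrial markers summed to 428 to 618 CPM in WKY, 28632 to 79095 in SHR, 37746 to 76078 in ARB and 358 to 68580 in ARNI. The 8 ventricular markers summed to 44060 to 44432 CPM in WKY, 610 to 10740 in SHR, 611 to 11475 in ARB and 833 to 19756 in ARNI. Much of these sums was Nppa, up to 53632 CPM, and Myh7, up to 32744 CPM. Some listed markers did not follow the split. The atrial Gja5 had a log2 fold change of -0.03 in SHR over WKY, and Bmp10 was at 1.02 CPM in SHR replicate 3. The ventricular Irx5 was at 5.16, 3.19 and 2.21 CPM under ARB, lowest in replicate 3. In the SHR against WKY comparison, strain and chamber marker level cannot be told apart. In bulk tissue, fewer cells of a type and less RNA per cell cannot be told apart either.

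**Figure D1:**
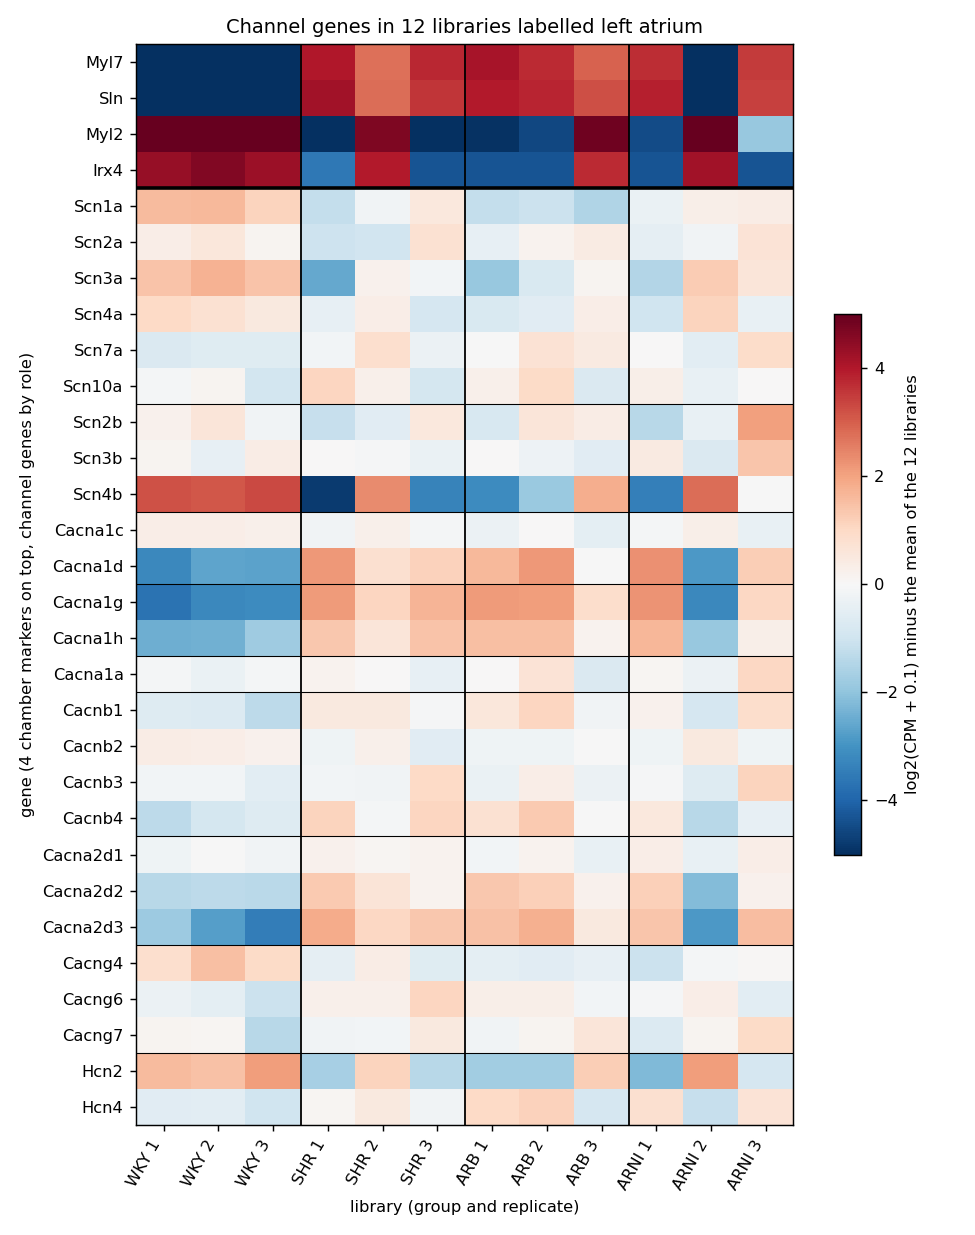
Heatmap of 4 chamber markers (top rows) and the channel genes with a mean of at least 1 CPM or a significant change that are described here (lower rows, by role) in 12 libraries (columns), coloured by log2 (CPM + 0.1) minus the gene's mean and clipped at the ends of the scale. ARNI replicate 2 shares the colours of the WKY columns for most genes, and SHR replicate 2 and ARB replicate 3 fall between for Cacna1d, Cacna1g and Scn4b.

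Promoters are shown for 4 genes on which the results turn: Hcn2 and Scn4b, which were high where the ventricular markers were, and Cacna2d2 and Cacna1d, which were high where the atrial markers were. The 250 bases before the annotated start are given 5′ to 3′ on the gene's strand, from RefSeq on build GRCr8. They lie at chr7:10639458-10639707 (minus strand) for Hcn2, chr8:54343623-54343872 (plus) for Scn4b, chr8:116950856-116951105 (plus) for Cacna2d2 and chr16:5527550-5527799 (minus) for Cacna1d. Capitals mark matches, on either strand, of GATA motifs (AGATAA and TGATAA), the T-box motif AGGTGT, the nuclear receptor site AGGTCA, the MEF2 motif or the GC box GGGCGG. The MEF2 motif was searched as CTA and TAG with any 4 bases between them.
Hcn2: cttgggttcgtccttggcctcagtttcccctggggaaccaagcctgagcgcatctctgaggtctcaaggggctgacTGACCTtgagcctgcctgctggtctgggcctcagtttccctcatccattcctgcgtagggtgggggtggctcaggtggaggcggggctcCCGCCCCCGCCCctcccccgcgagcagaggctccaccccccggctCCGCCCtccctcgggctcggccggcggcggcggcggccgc
Scn4b: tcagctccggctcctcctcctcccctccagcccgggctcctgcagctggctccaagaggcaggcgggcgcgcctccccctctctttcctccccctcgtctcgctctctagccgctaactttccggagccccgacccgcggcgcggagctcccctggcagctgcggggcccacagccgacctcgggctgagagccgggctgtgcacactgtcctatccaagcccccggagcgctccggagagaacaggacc
Cacna2d2: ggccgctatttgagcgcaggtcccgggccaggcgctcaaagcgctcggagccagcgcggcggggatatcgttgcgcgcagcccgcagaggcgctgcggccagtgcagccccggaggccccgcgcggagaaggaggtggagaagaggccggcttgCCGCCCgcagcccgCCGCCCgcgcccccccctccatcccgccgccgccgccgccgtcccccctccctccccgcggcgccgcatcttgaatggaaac
Cacna1d: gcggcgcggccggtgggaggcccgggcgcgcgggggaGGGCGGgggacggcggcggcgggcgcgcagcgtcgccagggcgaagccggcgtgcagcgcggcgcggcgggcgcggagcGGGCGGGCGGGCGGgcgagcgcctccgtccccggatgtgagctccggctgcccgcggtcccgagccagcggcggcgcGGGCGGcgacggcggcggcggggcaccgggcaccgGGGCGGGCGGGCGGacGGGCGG

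All 4 windows were rich in G and C, at 71.6% for Hcn2, 71.6% for Scn4b, 76.8% for Cacna2d2 and 88.8% for Cacna1d. The Hcn2 window held 1 AGGTCA match and 3 GC boxes, Cacna2d2 2 GC boxes and Cacna1d 9 GC boxes, overlapping matches counted separately. No capital stands in the Scn4b window. RefSeq windows were found for 28 of the 44 genes, 31 windows in all as some genes have several starts. GC boxes were in 51.6% of these 31 windows and in 30.5% of all 33469 promoter windows of the table. AGGTCA was in 12.9% against 14.1%, AGATAA in 6.45% against 10.3% and the E-box CANNTG, not capitalised, in 64.5% against 65.5%. TGATAA and AGGTGT and the MEF2 motif were in none of the 31, against 7.97%, 11.6% and 3.41% of all windows. These are matches of letters and not measured binding.

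The comparison of SHR with WKY sets libraries labelled left atrium from hypertensive and normotensive rats side by side. Their chamber markers differed as well, as given above. Calcium channel genes made up most of what differed: the T-type pores Cacna1g and Cacna1h, the L-type pore Cacna1d, the accessory subunits Cacna2d2, Cacna2d3, Cacnb1 and Cacnb4, and Cacng6 were higher in SHRs. Scn1a and Cacng4 were lower. A gene was called differentially expressed (DEG) where its log2 fold change was 1 or more in either direction and its p, after Benjamini-Hochberg adjustment over all 13794 genes that passed the filter on low counts, was not above 0.05 by the quasi-likelihood method of edgeR. Of the 44 channel genes 29 passed that filter. Of these 8 were DEGs in the higher direction (27.6%) against a background of 5.54% of all genes tested, and 2 in the lower direction (6.90%) against 3.35%. All 3 SHR values lay above all 3 WKY values for 12 channel genes (41.4%), and below for 6 (20.7%), where 33.7% and 15.9% of all genes tested did so. The median absolute log2 fold change of the 29 was 0.75, and that of all genes tested 0.33. Among the 29, 16 had an unadjusted p under 0.05, as did 5428 of the 13794 genes. DESeq2 called 11 of the 41 channel genes it tested and 1595 of 18705 genes. Without the filter on low counts, edgeR called 8 of 41 channel genes, and Cacnb1 and Cacng4 were not among them. Cacna2d3 passed the filter through the SHR libraries alone and Cacng4 through all WKY libraries and 1 SHR library, so that the shares of the 29 called are a description of genes that passed and not of all 44.

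These calls did not rest equally on the libraries. Cacna1d, Cacna1g, Cacna1h and Cacna2d3 were kept in 11 of 12 alternative settings, and the other 6 calls in 3 to 7. Without WKY replicate 1, 2 or 3 there were 4 calls each time, without SHR replicate 1 there were 7, and without SHR replicate 3 there were 8. Without SHR replicate 2, the SHR library with ventricular markers, there were 13. Calls over all genes moved too: there were 348 to 393 without a WKY library, 577 without SHR replicate 1, 1147 without SHR replicate 3 and 2205 without SHR replicate 2, against 1226 with all 6. With an atrial minus ventricular marker score added to a fit of all 12 libraries, 0 of the 29 were DEGs in edgeR, with 4 at an unadjusted p under 0.05. In that fit 92 of 14452 genes were DEGs and 2407 had an unadjusted p under 0.05. That score was -5.18 to -5.10 in WKY and 0.91 to 6.44 in SHR, so that this fit extends beyond scores at which both groups were seen.

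**Figure D2:**
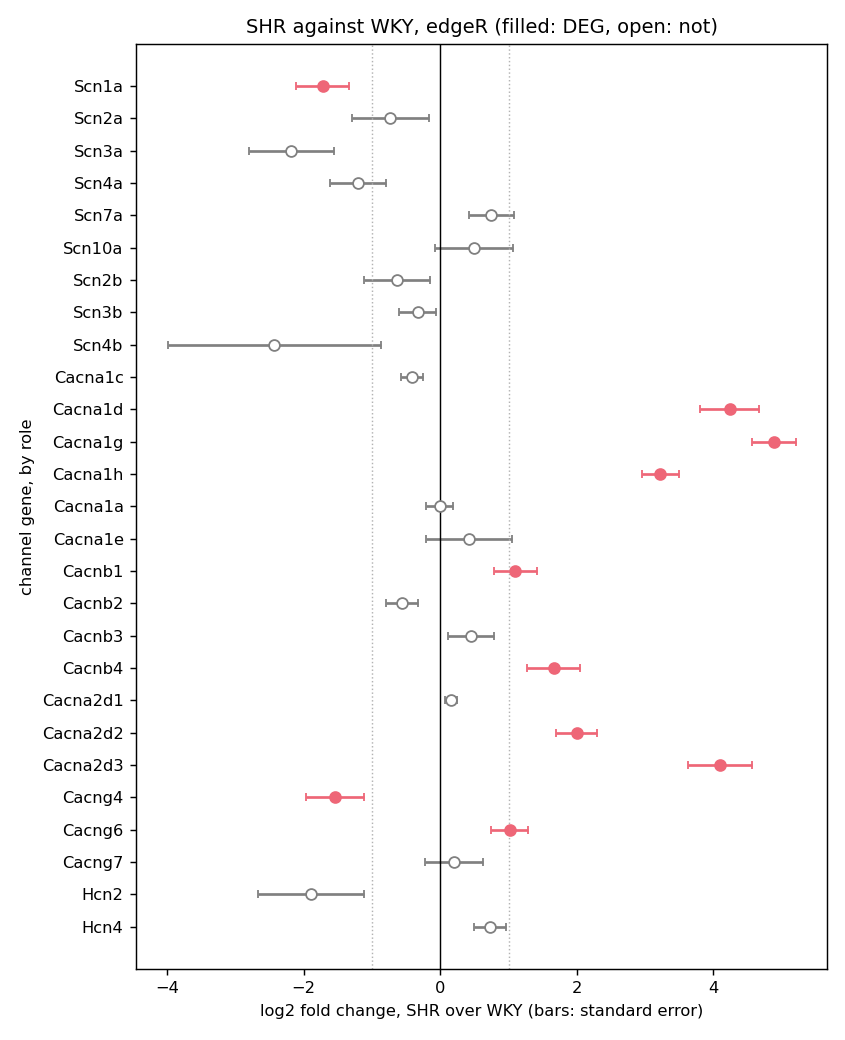
Log2 fold change of SHR over WKY (x axis, bars give the standard error) for 27 of the channel genes tested (y axis, by role), with DEGs filled and the others open. Cacna1g, Cacna1d, Cacna2d3 and Cacna1h stand at 3.22 to 4.89, and the bar of Scn4b is the longest, at a standard error of 1.56.

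Both T-type pores tested rose in SHRs. Cacna1g, which encodes Cav3.1, was at 12.1, 16.6 and 17.8 CPM in WKY rats against 689.6, 329.9 and 506 CPM in SHRs. It was at 691, 663 and 287 CPM under ARB and 738, 16.9 and 324 CPM under ARNI. The lowest SHR library was far above the highest WKY library, and ARNI replicate 2 was the one treated library at the WKY level. Mean levels were 15.5 ± 2.99 CPM (SD, n = 3) in WKY and 508 ± 179.9 CPM (SD, n = 3) in SHR, a log2 fold change of 4.89 ± 0.32 (SE; adjusted p = 0.00149) in edgeR.

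Cacna1h encodes Cav3.2, the other T-type pore with reads throughout. Its levels were 8.95, 9.22 and 14.04 CPM in WKY rats against 126, 74.9 and 130.4 CPM in SHRs. Treated rats had 140.5, 139 and 54.7 CPM under ARB and 155, 13.2 and 60.5 CPM under ARNI. SHR replicate 2 and ARB replicate 3 were the lowest of their groups, as for Cacna1g, and ARNI replicate 2 again lay within the WKY range. SHR over WKY gave a log2 fold change of 3.22 ± 0.27 (SE; adjusted p = 0.00245). The ratio of Cacna1g to Cacna1h counts, which is used only to set libraries side by side, was 1.27 to 1.80 in WKY and 3.88 to 5.46 in SHR, and ARNI replicate 2 had 1.28. The third T-type gene, Cacna1i, was at 0 to 0.473 CPM.

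Of the L-type pores tested 1 was a DEG. Cacna1d encodes Cav1.3, the L-type channel of sinus node and atrial cells, and was at 1.795, 2.81 and 2.68 CPM in WKY rats against 79.7, 30.7 and 40.0 CPM in SHRs. It was at 55.3, 79.6 and 17.5 CPM under ARB and 86.7, 2.36 and 42.2 CPM under ARNI. Groups of WKY and SHR did not overlap, and the log2 fold change was 4.24 ± 0.43 (SE; adjusted p = 0.00405).

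Cacna1c encodes Cav1.2, the main L-type pore of working heart muscle, and was at 250.3, 250.04 and 234 CPM in WKY rats against 176, 238 and 187 CPM in SHRs. Treated rats had 164, 198 and 142 CPM under ARB and 184, 243 and 155 CPM under ARNI. SHR replicate 2 reached into the WKY range, and the log2 fold change of -0.42 ± 0.16 (SE; adjusted p = 0.104) was not significant. The ratio of Cacna1d to Cacna1c counts was 0.00717 to 0.0115 in WKY, 0.129 to 0.452 in SHR, 0.123 to 0.401 in ARB and 0.00970 to 0.472 in ARNI, where replicate 2 had the lowest value. The skeletal muscle and retinal L-type genes Cacna1s and Cacna1f had at most 3 reads in a library.

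**Figure D3:**
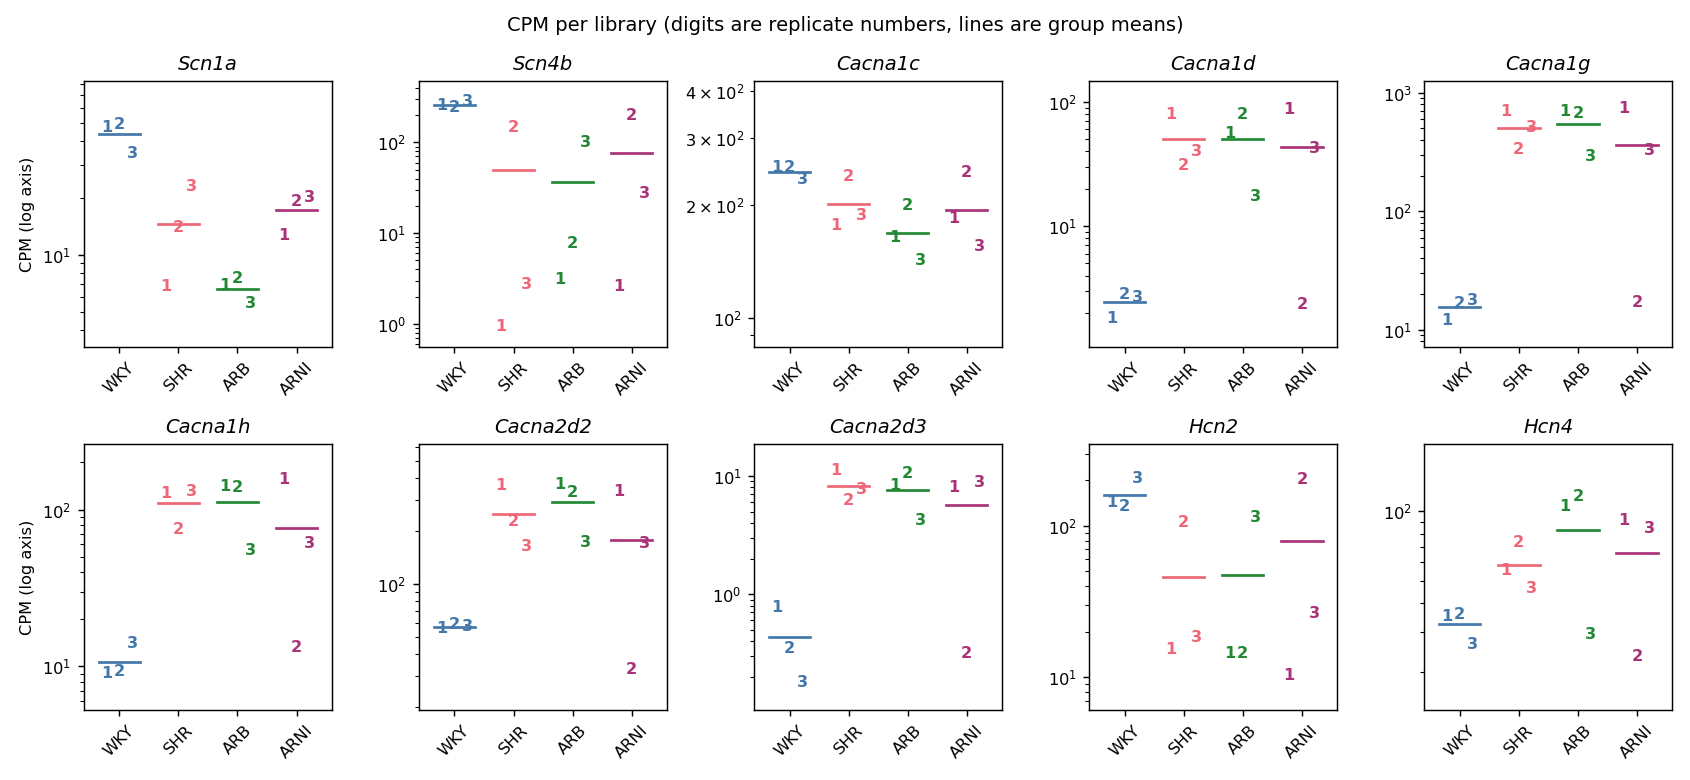
CPM on log axes for 10 channel genes, one panel a gene, with each library drawn as its replicate number in the colour of its group and a line at the group mean. For Cacna1g, Cacna1h and Cacna1d number 2 of ARNI lies at the WKY level, and for Scn4b and Hcn2 number 2 of SHR, 3 of ARB and 2 of ARNI lie apart from their groups toward the WKY values.

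Of the alpha2delta subunits, 2 were DEGs. Cacna2d2 was at 55.7, 58.5 and 57.1 CPM in WKY rats against 360.3, 225 and 163 CPM in SHRs. It was at 368, 331 and 172 CPM under ARB and 333, 32.5 and 169 CPM under ARNI. All SHR values lay above the WKY values, while ARNI replicate 2 was the lowest of the 12. The log2 fold change was 2.00 ± 0.30 (SE; adjusted p = 0.00973), and each of the fits without a WKY library lost the call (adjusted p up to 0.058 in edgeR).

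Cacna2d3 had few reads in WKY, so that it passed the filter through the SHR libraries, where it is high. It was at 0.767, 0.348 and 0.178 CPM in WKY rats against 11.03, 6.15 and 7.72 CPM in SHRs. It was at 8.33, 10.5 and 4.202 CPM under ARB and 7.96, 0.314 and 8.82 CPM under ARNI. Its log2 fold change was 4.10 ± 0.47 (SE; adjusted p = 0.00501), and 4.10 ± 0.46 (adjusted p = 0.00341) by edgeR with no filter. Cacna2d1, the alpha2delta subunit known from working heart muscle, was at 92.7, 106 and 96.5 CPM in WKY rats against 124, 117 and 122 CPM in SHRs, with a log2 fold change of 0.16 ± 0.09 (SE; adjusted p = 0.242). It was at 98.5, 124 and 83.3 CPM under ARB and 138, 83.01 and 135 CPM under ARNI. The SHR values of Cacna2d1 were all above the WKY values, by an amount far below the threshold. The fourth gene, Cacna2d4, had 1 read in all.

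The cytoplasmic beta subunits chaperone the calcium pore and tune its gating, and 2 of the 4 were DEGs. Cacnb2, the main beta subunit of the heart, was at 116, 114 and 103 CPM in WKY rats against 77.5, 107 and 60.6 CPM in SHRs. It was at 76.5, 78.1 and 87.7 CPM under ARB and 77.6, 125 and 78.2 CPM under ARNI. SHR replicate 2 overlapped the WKY values, and the log2 fold change was -0.56 ± 0.23 (SE; adjusted p = 0.126).

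Both Cacnb1, the beta subunit of skeletal muscle, and Cacnb4 rose in SHRs from low levels. Cacnb1 was at 1.88, 1.83 and 1.16 CPM in WKY rats against 4.21, 4.26 and 2.91 CPM in SHRs. Its treated libraries had 4.497, 6.53 and 2.695 CPM under ARB and 3.48, 1.65 and 5.699 CPM under ARNI. The log2 fold change was 1.10 ± 0.31 (SE; adjusted p = 0.0483), and the call was lost without any one of 5 of the 6 libraries.

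Cacnb4 was at 0.767, 1.04 and 1.24 CPM in WKY rats against 4.48, 1.89 and 4.34 CPM in SHRs. In treated rats it was at 3.505, 5.16 and 1.98 CPM under ARB and 2.97, 0.707 and 1.49 CPM under ARNI. No SHR value reached down to the WKY values, and the log2 fold change was 1.66 ± 0.39 (SE; adjusted p = 0.0326). This call too was lost without any one of 5 of the 6 libraries (adjusted p up to 0.115 in edgeR). Cacnb3 was at 4.603, 4.696 and 3.55 CPM in WKY rats against 4.61, 4.49 and 10.4 CPM in SHRs, and at 4.10, 6.53 and 4.202 CPM under ARB and 4.87, 3.22 and 11.1 CPM under ARNI. Its highest values were SHR replicate 3 and ARNI replicate 3, and the log2 fold change was 0.45 ± 0.34 (SE; adjusted p = 0.357).

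Gamma subunits are a family in which some members join calcium channels and others, the TARPs, regulate glutamate receptors. Cacng6, of the calcium channel branch, was at 11.8, 10.2 and 6.84 CPM in WKY rats against 17.4, 17.4 and 30.3 CPM in SHRs. It was at 17.8, 17.7 and 13.1 CPM under ARB and 13.8, 18.03 and 10.1 CPM under ARNI. All SHR values were above the WKY values and the log2 fold change was 1.02 ± 0.27 (SE; adjusted p = 0.0417). Leaving out any one of 5 of the 6 libraries lost the call (adjusted p up to 0.124 in edgeR). The counts of Cacng6 were not whole in any library, as RSEM gives them for reads that match more than one place, so that its level is uncertain to that extent. The same limit holds for other calls. Cacna1d and Scn1a had no whole count either, and Cacna1g, Cacna1h and Cacna2d2 had counts that were not whole in 8 libraries. Of the 44 channel genes 23 had at least 1 such count.

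Cacng4, of the TARP branch, fell in SHRs at a level of a few reads, up to 27 in a library. It was at 1.45, 2.35 and 1.60 CPM in WKY rats against 0.535, 1.02 and 0.474 CPM in SHRs. Treated rats had 0.529, 0.481 and 0.555 CPM under ARB and 0.316, 0.707 and 0.814 CPM under ARNI. With a log2 fold change of -1.54 ± 0.42 (SE; adjusted p = 0.0467), no SHR value reached the WKY values. With no filter on low counts Cacng4 was not called (adjusted p = 0.0626 in edgeR). Nor was it called without any one of 5 of the 6 libraries (adjusted p up to 0.162 in edgeR). Cacng7, a TARP, was at 2.98, 2.87 and 0.978 CPM in WKY rats against 2.34, 2.44 and 3.86 CPM in SHRs, with a log2 fold change of 0.20 ± 0.43 (SE; adjusted p = 0.758), and at 2.38, 2.96 and 4.12 CPM under ARB and 1.64, 2.99 and 5.29 CPM under ARNI. Groups overlapped for Cacng7. Cacng1, Cacng2, Cacng3, Cacng5 and Cacng8 had at most 4 reads in any library.

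P/Q-type and R-type pores are mainly known from neurons. Cacna1a, the P/Q-type pore, was at 17.99, 15.4 and 18.3 CPM in WKY rats against 21.9, 19.6 and 14.6 CPM in SHRs. It was at 19.5, 31.3 and 11.7 CPM under ARB and 20.9, 15.8 and 39.6 CPM under ARNI. The WKY and SHR groups overlapped, with a log2 fold change of -0.01 ± 0.20 (SE; adjusted p = 0.972), and ARNI replicate 3 was the highest of all libraries. Cacna1e, the R-type pore, stood at 0.134 to 1.49 CPM over the 12 libraries, and the groups overlapped.

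None of the 11 sodium channel genes tested was a DEG in the higher direction in edgeR, and 1 was in the lower. Scn1a, whose product Nav1.1 is best known from neurons, was that gene. It was at 47.05, 48.8 and 34.1 CPM in WKY rats against 6.79, 13.9 and 22.96 CPM in SHRs. In treated rats it was at 6.85, 7.49 and 5.51 CPM under ARB and 12.6, 19.1 and 20.2 CPM under ARNI. The highest SHR value was below the lowest WKY value, and ARNI replicate 2 was not at the WKY level for Scn1a. The log2 fold change was -1.72 ± 0.39 (SE; adjusted p = 0.0282). Each of the fits without a WKY library lost the call (adjusted p up to 0.0992 in edgeR). None of the Scn1a values was whole, and RSEM divides reads that match several similar genes, so that the split between Scn genes is uncertain.

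Scn3a and Scn4a also had all SHR values below all WKY values, without passing the threshold in edgeR with all 6 libraries. Scn3a was at 5.97, 7.54 and 5.97 CPM in WKY rats against 0.282, 2.56 and 1.96 CPM in SHRs, and at 0.507, 1.22 and 2.41 CPM under ARB and 0.713, 5.399 and 3.30 CPM under ARNI. Its log2 fold change was -2.18 ± 0.62 (SE; adjusted p = 0.0508), just above the threshold. It passed in DESeq2 (-2.19, adjusted p = 0.00452), under RLE scaling (-2.20, adjusted p = 0.0478), without SHR replicate 1 (-1.66, adjusted p = 0.0299) and without SHR replicate 2 (-2.73, adjusted p = 0.0143), and in none of the other 8 alternative settings. Scn4a, the skeletal muscle channel Nav1.4, was at 2.48, 2.08 and 1.69 CPM in WKY rats against 0.872, 1.502 and 0.612 CPM in SHRs, and at 0.663, 0.762 and 1.51 CPM under ARB and 0.547, 2.68 and 0.884 CPM under ARNI. Its log2 fold change was -1.20 ± 0.41 (SE; adjusted p = 0.0789), and without SHR replicate 2 it was -1.64 (adjusted p = 0.0167 in edgeR). The 9 skeletal muscle markers summed to 1385 to 1589 CPM in WKY and to 37.9 to 257 CPM in SHR, and most of that was 1 gene, the actin gene Acta1, at 1380, 1583 and 1462 CPM in WKY and 42.7, 248 and 20.9 CPM in SHR (log2 fold change -3.91, adjusted p = 0.0352). Another of them, the calcium pump gene Atp2a1, was higher in SHRs, with a log2 fold change of 3.06 ± 0.39 (SE; adjusted p = 0.00672). Myh1, Myh2, Myh4, Actn3 and Pvalb, of the same list, were at 0.717 CPM or less in every library. The part of the skeletal muscle markers in the Scn4a values was not tested.

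Scn7a, the sodium-sensing channel Nax, was at 59.1, 64.96 and 64.8 CPM in WKY rats against 88.5, 176 and 79.3 CPM in SHRs. It was at 97.4, 162 and 133 CPM under ARB and 98.2, 68.4 and 184 CPM under ARNI. All SHR values of Scn7a were above the WKY values, with a log2 fold change of 0.75 ± 0.33 (SE; adjusted p = 0.145). Scn8a and Scn11a, known from neurons, had at most 4.26 and 3 expected counts in a library.

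Scn2a, a neuronal alpha subunit, was at 1.38, 1.67 and 1.21 CPM in WKY rats against 0.477, 0.505 and 1.897 CPM in SHRs, and at 0.782, 1.23 and 1.47 CPM under ARB and 0.771, 0.935 and 1.82 CPM under ARNI. Scn10a, which encodes Nav1.8, was at 1.49, 1.76 and 0.793 CPM in WKY rats against 3.43, 1.91 and 0.826 CPM in SHRs. It was at 1.94, 3.22 and 0.929 CPM under ARB and 2.003, 1.23 and 1.598 CPM under ARNI. Groups overlapped for Scn2a and Scn10a, with log2 fold changes of -0.73 ± 0.56 (SE; adjusted p = 0.363) and 0.49 ± 0.57 (SE; adjusted p = 0.55).

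Scn4b had the largest standard error among the 29 channel genes tested. It encodes the beta4 subunit, which shapes the resurgent sodium current, and was at 255, 243 and 279.7 CPM in WKY rats against 0.936, 147 and 2.71 CPM in SHRs. It was at 3.11, 7.77 and 99.3 CPM under ARB and 2.59, 199 and 27.7 CPM under ARNI. The 3 WKY libraries were close together, SHR replicate 2, ARB replicate 3 and ARNI replicate 2 were near 100 CPM or above, and the other SHR and ARB libraries were under 10 CPM. The log2 fold change of -2.43 ± 1.56 (SE; adjusted p = 0.285) did not pass. Without SHR replicate 2 it was -7.33 (adjusted p = 6.82e-05 in edgeR), so that 1 library decided this call.

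Scn2b was at 1.66, 2.23 and 1.27 CPM in WKY rats against 0.585, 0.937 and 2.08 CPM in SHRs, and at 0.7796, 2.25 and 1.89 CPM under ARB and 0.491, 1.09 and 6.27 CPM under ARNI. Scn3b was at 5.39, 3.61 and 6.27 CPM in WKY rats against 4.91, 4.67 and 3.796 CPM in SHRs, and at 4.89, 4.03 and 3.28 CPM under ARB and 6.61, 2.92 and 12.9 CPM under ARNI. The beta2 and beta3 subunits had overlapping WKY and SHR groups, with log2 fold changes of -0.63 ± 0.48 (SE; adjusted p = 0.36) and -0.33 ± 0.27 (SE; adjusted p = 0.404), and both were highest in ARNI replicate 3.

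**Figure D4:**
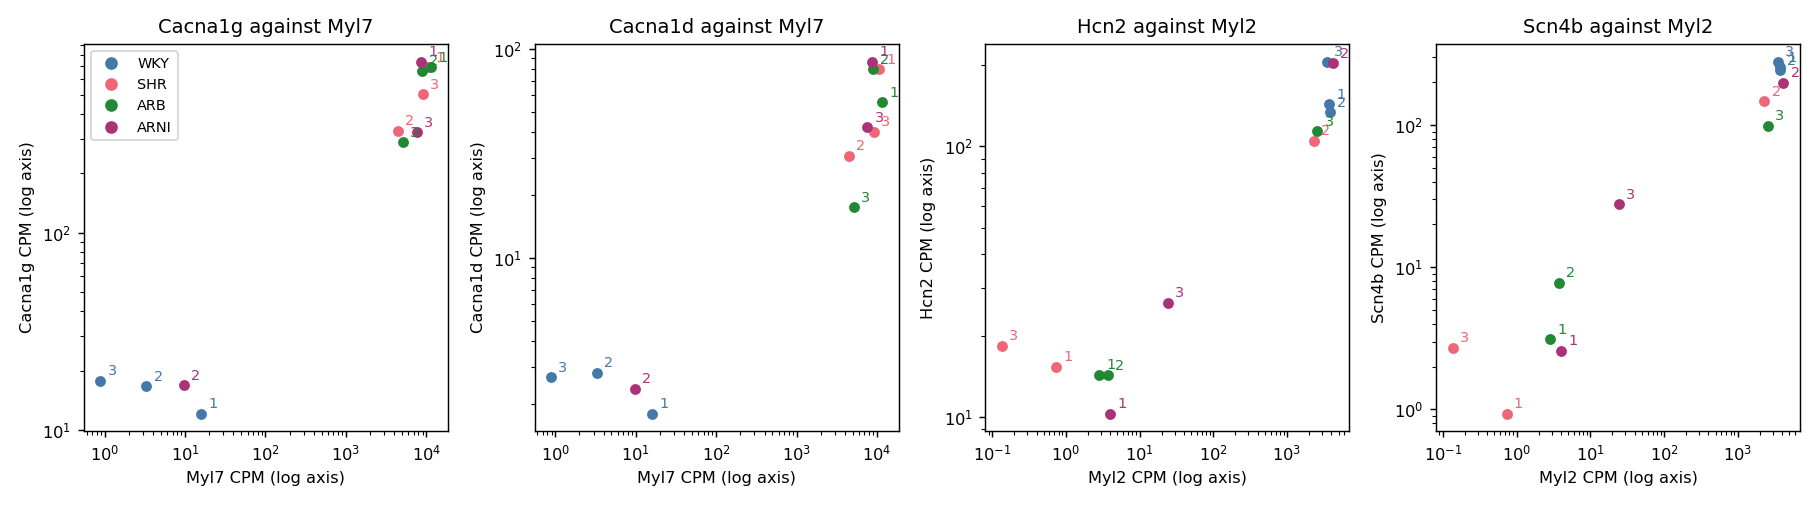
CPM of Cacna1g and Cacna1d against CPM of Myl7, and of Hcn2 and Scn4b against CPM of Myl2, on log axes, with a point a library in the colour of its group and its replicate number beside it. The WKY points and ARNI replicate 2 lie low on Myl7, at 0.889 to 15.9 CPM, with low Cacna1g and Cacna1d, and the 6 libraries at 2298 CPM of Myl2 or more have the highest Hcn2 and Scn4b.

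Neither of the 2 pacemaker channel genes tested was a DEG with all libraries in the fit. Hcn2 was at 143, 134 and 206 CPM in WKY rats against 15.3, 105 and 18.4 CPM in SHRs. It was at 14.3, 14.2 and 114 CPM under ARB and 10.3, 203 and 26.5 CPM under ARNI. As for Scn4b, the libraries with Myl2 were the high ones, and the log2 fold change was -1.89 ± 0.78 (SE; adjusted p = 0.121). Without SHR replicate 2 it was -3.43 (adjusted p = 2.05e-04 in edgeR), and again 1 library decided the call.

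Hcn4, the main HCN channel of the sinus node, was at 34.95, 35.8 and 26.4 CPM in WKY rats against 55.3, 73.4 and 46.2 CPM in SHRs. It was at 104, 116 and 29.2 CPM under ARB and 91.4, 23.3 and 84.1 CPM under ARNI. All SHR values were above all WKY values, with a log2 fold change of 0.73 ± 0.23 (SE; adjusted p = 0.0624). The ratio of Hcn4 to Hcn2 counts was 0.128 to 0.268 in WKY. It was 3.61, 0.701 and 2.52 in SHR, 7.28, 8.12 and 0.257 in ARB, and 8.87, 0.115 and 3.18 in ARNI. ARB replicate 3 and ARNI replicate 2 were within or under the WKY range. Hcn3 stayed at 0 to 0.816 CPM, under the filter, so that it was not tested.

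Over the 27 channel genes with a mean of at least 1 CPM, ARNI replicate 2 was nearer to the WKY mean than to the mean of the other 2 ARNI libraries for 23, on the log2 (CPM + 1) scale. The exceptions were Cacng6, Cacng7, Scn2a and Scn1a. The same count was not made over all genes, so that it only describes this library. Whether it is particular to channel genes was not tested.

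Partner genes of these channels, from lists chosen with earlier results known, gave 4 DEGs in SHR over WKY. Of 55 names 52 were in the table and 40 were tested: 3 were higher in SHRs (7.5%, background 5.54%) and 1 lower (2.5%, background 3.35%). Fgf12, an intracellular modulator of sodium channel inactivation, was at 39.1, 46.7 and 48.2 CPM in WKY rats against 142, 80.97 and 104 CPM in SHRs, a log2 fold change of 1.15 ± 0.21 (SE; adjusted p = 0.0164). Gem, a small GTPase that inhibits calcium channels, was at 2.05, 1.74 and 1.07 CPM in WKY rats against 5.82, 4.26 and 21.3 CPM in SHRs, a log2 fold change of 2.51 ± 0.65 (SE; adjusted p = 0.0399). The groups overlapped for neither gene.

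Tbx18, a transcription factor of the sinus node head, was at 9.63, 6.78 and 8.798 CPM in WKY rats against 25.7, 23.6 and 34.3 CPM in SHRs, a log2 fold change of 1.58 ± 0.18 (SE; adjusted p = 0.00489). The 4 mesothelial markers summed to 44.6 to 54.9 CPM in WKY and 132 to 282 CPM in SHR. Of these Upk3b, Upk1b and Msln were DEGs in the higher direction (log2 fold changes 2.62, 2.77 and 2.03) and Wt1 was not called (-0.27). Upk3b was at 7.08, 3.83 and 3.91 CPM in WKY rats against 28.8, 21.6 and 51.3 CPM in SHRs, and at 27.4, 32.3 and 5.47 CPM under ARB and 29.7, 3.38 and 36.1 CPM under ARNI. Tbx18 was at 18.3, 21.5 and 6.74 CPM under ARB and 23.8, 6.92 and 27.8 CPM under ARNI, so that ARB replicate 3 and ARNI replicate 2 were low for both genes, and the part of mesothelium in Tbx18 was not tested. Unc79, an accessory protein of the sodium leak channel, fell in SHRs. It was at 2.05, 1.48 and 1.51 CPM in WKY rats against 0.201, 0.0788 and 0.271 CPM in SHRs, a log2 fold change of -3.24 ± 0.43 (SE; adjusted p = 0.0071). Unc79 passed the filter through the WKY libraries alone, where it is high, and with no filter the log2 fold change was -3.24 ± 0.49 (adjusted p = 0.00865 in edgeR). By list, 1 of 14 sodium channel partners, 1 of 11 calcium channel partners and 1 of 6 pacemaker partners and sinus node factors tested were higher, and 1 of 9 other transport genes was lower. Shox2, another sinus node factor, was picked after its values were seen. It was at 0.426, 0.522 and 0.444 CPM in WKY rats against 1.404, 19.3 and 2.85 CPM in SHRs, and at 10.5, 29.4 and 1.903 CPM under ARB and 8.34, 0.629 and 87.4 CPM under ARNI. All SHR values were above the WKY values, and Shox2 passed the filter through the SHR libraries alone. The log2 fold change was 3.96 ± 1.17 (SE; adjusted p = 0.0551) in edgeR, which did not pass, and 3.98 (adjusted p = 3.31e-04) in DESeq2, which did. Other sinus node factors of that list did not follow. Tbx3 was at 9.72, 11.7 and 17.8 CPM in WKY rats against 3.54, 21.6 and 6.16 CPM in SHRs. Its groups overlapped, with a log2 fold change of -0.44 ± 0.67 (SE; adjusted p = 0.656 in edgeR). Isl1 was at 0 CPM in every WKY and SHR library.

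The comparisons of treated with untreated SHRs ask what each drug changed, and that of ARNI with ARB asks how the drugs differed. No channel gene was a DEG in any of them in edgeR, and neither was any gene of the table, with a background of 0% for higher and for lower in each. All use the same SHR, ARB or ARNI libraries in pairs, so that they are not independent of each other. In ARB against SHR, edgeR tested 27 channel genes and 1 had an unadjusted p under 0.05 (225 of 13979 genes did). DESeq2 called 0 of 40 channel genes and 3 of 18523 genes there. In ARNI against SHR, edgeR tested 29 and 0 had an unadjusted p under 0.05 (227 of 13955 genes did). DESeq2 called 0 of 42 channel genes and 7 of 18605 genes. In ARNI against ARB, edgeR tested 27 and 1 had an unadjusted p under 0.05 (539 of 13948 genes did). DESeq2 called 1 of 42 channel genes and 18 of 18573 genes.

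The genes with the lowest p in each fit were the following. For ARB over SHR the log2 fold changes were -1.09 ± 0.40 (SE; adjusted p = 1) for Scn1a, -0.38 ± 0.23 (SE; adjusted p = 1) for Cacng6 and -0.23 ± 0.14 (SE; adjusted p = 1) for Cacna2d1. For ARNI over SHR they were -0.98 ± 0.55 (SE; adjusted p = 0.999) for Cacnb4, 0.79 ± 0.48 (SE; adjusted p = 0.999) for Scn3b and -0.52 ± 0.34 (SE; adjusted p = 0.999) for Cacng6. For ARNI over ARB, Scn1a had 1.45 ± 0.24 (SE; adjusted p = 0.993), Scn3b 0.90 ± 0.48 (SE; adjusted p = 0.993) and Cacnb4 -0.98 ± 0.55 (SE; adjusted p = 0.993), all by edgeR. Scn1a was the one channel gene of 27 (3.70%) whose ARNI values, 12.6, 19.1 and 20.2 CPM, all lay above the ARB values, 6.85, 7.49 and 5.51 CPM, and 3% of all genes tested did so. DESeq2 gave it a log2 fold change of 1.46 with an adjusted p of 0.0016, so that the tools differ on this gene.

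**Figure D5:**
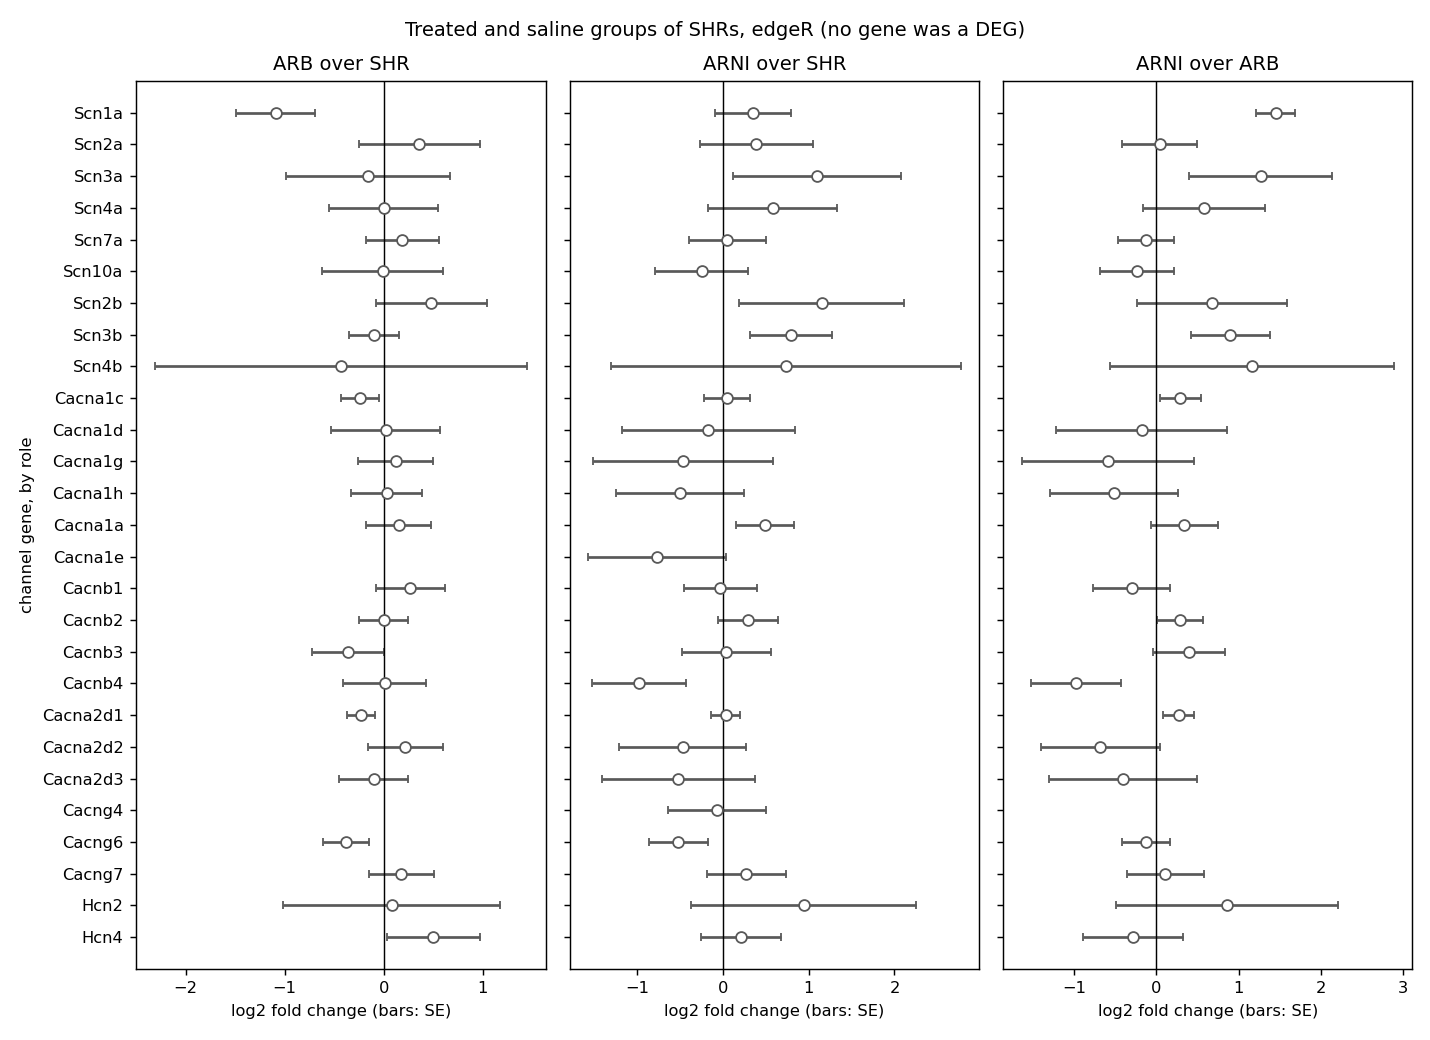
Log2 fold changes (x axis, bars give the standard error) of channel genes (y axis, by role) for ARB over SHR, ARNI over SHR and ARNI over ARB, one panel each, with a gap where a gene was not tested. No gene was a DEG, and the point farthest from 0 on the negative side is Scn1a for ARB over SHR, at -1.09, and on the positive side Scn1a for ARNI over ARB, at 1.45.

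Since SHR replicate 2, ARB replicate 3 and ARNI replicate 2 carried ventricular markers, the drug comparisons were repeated without them, a choice made after the data were seen that leaves 2 libraries a group. No channel gene was a DEG there either. For ARB over SHR, 2 of 28 channel genes and 318 of 14083 genes had an unadjusted p under 0.05 in edgeR. For ARNI over SHR these were 3 of 28 and 359 of 14136, and for ARNI over ARB 2 of 27 and 382 of 14125. The genes named next were picked with their values known. The 2 remaining SHR libraries had Hcn4 at 55.3 and 46.2 CPM, the ARB libraries at 104 and 116 CPM, and the ARNI libraries at 91.4 and 84.1 CPM. The log2 fold change of Hcn4 became 1.14 ± 0.16 (SE) for ARB over SHR and 0.84 ± 0.18 for ARNI over SHR, both with an adjusted p of 1 in edgeR. With all libraries it had been 0.50 ± 0.47 and 0.21 ± 0.47. Hcn2 moved from 0.94 ± 1.31 to 0.17 ± 0.45 for ARNI over SHR, and Scn1a from 1.45 ± 0.24 to 1.21 ± 0.27 for ARNI over ARB.

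The channel genes at the low end held 1 pattern of their own. Of the 44 genes, 17 had a mean under 1 CPM, 13 of these were under 1 CPM in all 12 libraries and 9 had no read in at least 6. Scn9a and Cacna1b, which encode the peripheral neuron channel Nav1.7 and the N-type calcium channel, were above 1 CPM in ARNI replicate 3 alone. Scn9a was at 6.05 CPM there and at 0 to 0.567 CPM in the other 11, and Cacna1b at 3.46 CPM against 0 to 0.435 CPM.

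Markers of intrinsic neurons other than Npy, Th and Gal were also highest in ARNI replicate 3. The 12 listed summed to 11.8 to 20.4 CPM in WKY, 23.8 to 33.8 in SHR, 39.4 to 116 in ARB and 14.8 to 299.6 in ARNI, with ARNI replicate 3 the highest. Chrna3, a nicotinic receptor subunit of autonomic ganglia, was at 7.94 CPM in ARNI replicate 3 and at 0 to 0.275 CPM elsewhere. Phox2a was at 6.14 CPM there against 0 to 0.771 CPM. The high values of ARB replicates 1 and 3 came mainly from Npy, at 94.5 and 99.4 CPM, against 62.1 CPM in ARNI replicate 3. Th and Gal were both at 0.0678 CPM in ARNI replicate 3, and reached 0.413 CPM in ARB replicate 2 and 0.238 CPM in ARB replicate 3. Schwann cell, smooth muscle and adipocyte markers were also highest in ARNI replicate 3, at 258, 682 and 493 CPM summed. Their part in the values of Scn9a, Cacna1b, Cacna1a, Scn2b and Scn3b in that library was not tested.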

How the data were processed

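RNA-seq of tissue labelled left atrium was analysed from 1 table of 12 libraries. The authors filtered and aligned the reads, and what they deposited are RSEM expected counts of each gene without normalization. Per the labels' processing notes, HISAT2 2.0.4, Bowtie2 2.2.5 and build Rnor_6.0 were used. The table also holds the authors' own fold change and p-value columns for SHR and WKY, which were not used. All 44 channel gene identifiers matched the GRCr8 gene table, which served for names and promoters. Of all values, 23.6% were not whole (tolerance 0.005).

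Expected counts were rounded. Genes were filtered by filterByExpr, scaled by TMM and tested pairwise, on the 6 libraries of each pair, with edgeR 4.0.16 (R 4.3.3) by its quasi-likelihood test, Benjamini-Hochberg adjusted over all genes tested. Standard errors came from the F statistic. DESeq2 1.42.0, other scaling and filters, all 12 libraries in 1 fit, a marker score covariate, a replicate block and leaving out each library were alternatives. P-values measure the spread between the libraries of a group, 3 each. The smallest two-sided exact permutation p for 3 against 3 is 0.10, so no single-gene permutation test was used. Levels and folds of low genes are limited by counting error. Same-numbered ARNI and SHR libraries, numbered in their library names, deviated together (correlations of deviations 0.51, 0.47 and 0.18). In ARB against SHR and in ARNI against ARB only replicates 1 did so, at 0.42 and 0.52, and replicates 2 and 3 were at -0.44 to -0.15. Replicates 2 of ARNI and SHR also shared high Myl2, and the part of chamber markers in these correlations was not tested. The block changed no call between ARNI and SHR.

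Members and lists were chosen with earlier results of these data known. Levels per library are given for genes with a mean of at least 1 CPM or a call. Folds are given for genes called, a core set in SHR against WKY, and otherwise the 3 lowest p. Some genes of the family are not reported here. There were 12 lists of chamber and cell type markers.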

Additional observations from a re-analysis of the deposited data

How the results depend on the processing

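Against 10 DEGs among the channel genes in SHR over WKY, the fit of all 12 libraries gave 5, the replicate block 5 and the marker score covariate 0, and leaving out 1 library gave 4 to 13. Over all genes these settings gave 579, 681, 92 and 348 to 2205 DEGs, against 1226. RLE scaling and DESeq2 gave 11 each and no filter on low counts gave 8 (1247, 1595 and 1239 over all genes). Same-numbered SHR and WKY libraries shared only a number (correlations of deviations 0.03, -0.05 and -0.08). DESeq2 called 1 channel gene in ARNI over ARB, against 0 in edgeR. Among the channel genes the drug comparisons gave 0 under every other alternative run, the replicate block included. The covariate turned the sign of 12 of the 29 channel genes tested in SHR over WKY. For 7 of them that were called or in the core set, the log2 fold changes became 0.10 for Cacna1c, -0.24 for Cacna2d1, 0.25 for Cacnb2, -0.05 for Cacnb4, 1.80 for Hcn2, -0.49 for Hcn4 and 2.39 for Scn4b. In that fit the scores of the WKY and SHR groups do not overlap, and the cause of these turns was not tested. Leaving out 1 library there turned up to 4 of the 29, none of them called or in the core set, and the other settings turned 0. Of the values of called, core and lowest-p genes, 252 kept their direction and side of the threshold, 47 lost the threshold and 3 passed it. The 3 fits without the libraries of SHRs high in Myl2 were chosen after seeing the data. Depth limited the 17 genes under 1 CPM, where 3 reads are 0.190 to 0.267 CPM.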

Other observations

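Markers of other cell types were summed in each library, as values that bear on what the tissue pieces held. Working cardiomyocyte markers (5 genes) summed to 53989 to 72869 CPM, and single genes were as follows: in SHR over WKY the log2 fold change was -0.70 for Actc1 and -0.67 for Tnnt2, with all SHR values below the WKY values, and 0.27 for Myh6, with all above. None of the 3 was a DEG (edgeR adjusted p = 0.0894, 0.132 and 0.484), and DESeq2 gave an adjusted p of 3.29e-04 for Actc1. Fibroblast markers (4 genes) were at 957 to 1105 CPM in WKY, 641 to 1926 in SHR, 923 to 1359 in ARB and 613 to 1511 in ARNI. Endothelial markers (4 genes) were at 788 to 852 CPM in WKY, 705 to 1119 in SHR, 524 to 1217 in ARB and 697 to 1379 in ARNI. Of these Cdh5 and Kdr had all SHR values below the WKY values (log2 fold changes -0.79 and -0.57). Pecam1 (0.15) and Vwf (0.57) overlapped, and none was a DEG. Mesothelial markers (4 genes) were at 44.6 to 54.9 CPM in WKY and 132 to 282 CPM in SHR, and leukocyte markers (4 genes) at 21.5 to 29.0 and 9.07 to 28.3 CPM. The leukocyte marker Ptprc was a DEG in the lower direction in SHRs (-1.64, adjusted p = 0.0131 in edgeR). Cd68 (-0.10) and Cd3e (-0.69) were not called. Ucp1, the uncoupling protein of brown fat, was at 182 CPM in ARNI replicate 3 and at 15.6 CPM in ARB replicate 2, and at 0 to 1.19 CPM in the other 10 libraries.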
